A study of Hynobius leechii and Hynobius unisacculus and Hynobius quelpaertensis with 23 samples.

Results

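CDH5, TEK, TIE1 and STAB2 are 4 genes that mark endothelium, the cell layer that lines blood and lymph vessels. They were taken by gene symbol from 6 tables of read counts, and made up 4 of 13514 symbols and 15 of the 49173 gene rows. STAB2 had a row in all 6 tables, TEK in 5, TIE1 in 3 and CDH5 in 1, and a gene was not analysed here where its symbol had no row in the tables used. The tables hold polyadenylated RNA of 23 tissue libraries from 15 wild-caught, untreated adult salamanders of the genus Hynobius. The animals fell into 6 lineages of 4 species, with 1 table for each lineage. HC1, HC3 and LE are lineages of H. leechii, QU is H. quelpaertensis, UN is H. unisacculus and YA is H. yangi. A liver was sequenced from each of the 15 animals, 3 per lineage of H. leechii and 2 per lineage of the other species. An intestine was added for 1 animal of every lineage but HC3, and a skin for 1 animal of HC1, HC3 and UN, so that each intestine or skin has no replicate within its lineage. The labels give each animal its own specimen number, while the extraction protocol speaks of embryos where every sample is labelled adult tissue.

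Endothelial cells hold together through vascular endothelial cadherin, the product of CDH5, a calcium-dependent adhesion molecule bound inside the cell to catenins. TEK, also called TIE2, is the receptor tyrosine kinase for the angiopoietins, which set the quiescence and leakiness of vessels, and TIE1 is its related partner receptor, for which angiopoietins are not direct high-affinity ligands. STAB2, stabilin-2, is a large scavenger receptor that clears hyaluronan and other waste molecules from the blood, and in mammals it is made mainly by the sinusoidal endothelium of liver, spleen and lymph node. These roles are known from mammals and other vertebrate models, not from Hynobius.

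Total counts per library were 8672566 to 16013480 in the 9 livers whose animal gave no other tissue, 15103944 to 19281948 in the livers of the 6 animals that gave more than 1 tissue, 1703075 to 3390245 in intestine and 2552636 to 4628175 in skin. The livers of those 6 animals, called multi-tissue livers below, stood apart from all other libraries. In them 24.3% to 40.8% of the rows were at 0 and 43.0% to 51.4% of counts under 20 were odd, against 0.654% to 15.9% and 11.3% to 22.5% in the other 17 libraries. There is 1 multi-tissue liver in each lineage, and the tests of the 4 genes in intestine and skin against liver are given with and without them. A marker check followed the labels of the tissues, except that the HC3 skin and some intestines also held genes of other tissues. The summed level of the hepatocyte genes, of which 8 to 10 of 10 had a row in a table, was 15663 to 131057 CPM (counts per 1000000 counts of a library's whole table) in liver, that of the intestinal epithelium genes (6 to 8 of 8) 6238 to 20848 CPM in intestine, and that of the keratinocyte genes (7 or 8 of 8 in the tables with skin) 18435 to 31559 CPM in skin. The HC3 skin held 14752 CPM of the intestinal epithelium genes and 15187 CPM of the hepatocyte genes, against 863 to 1561 and 51.9 to 469 in the other skins. That skin is part of the skin tests of TEK, STAB2 and the gene lists below. In intestine the hepatocyte genes summed to 9266 CPM in QU, 4688 in LE and 2708 in HC1, against 808 in YA and 58.4 in UN. The part of such liver transcripts in the intestine levels of the 4 genes was not tested. Each lineage has a table with its own set of genes, and the sequences behind them were not analysed here, so levels are compared here between libraries of 1 table. Lengths were not used, and a level set across tables or genes is a description. In bulk tissue, fewer endothelial cells and less RNA per endothelial cell cannot be told apart.

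**Figure D1:**
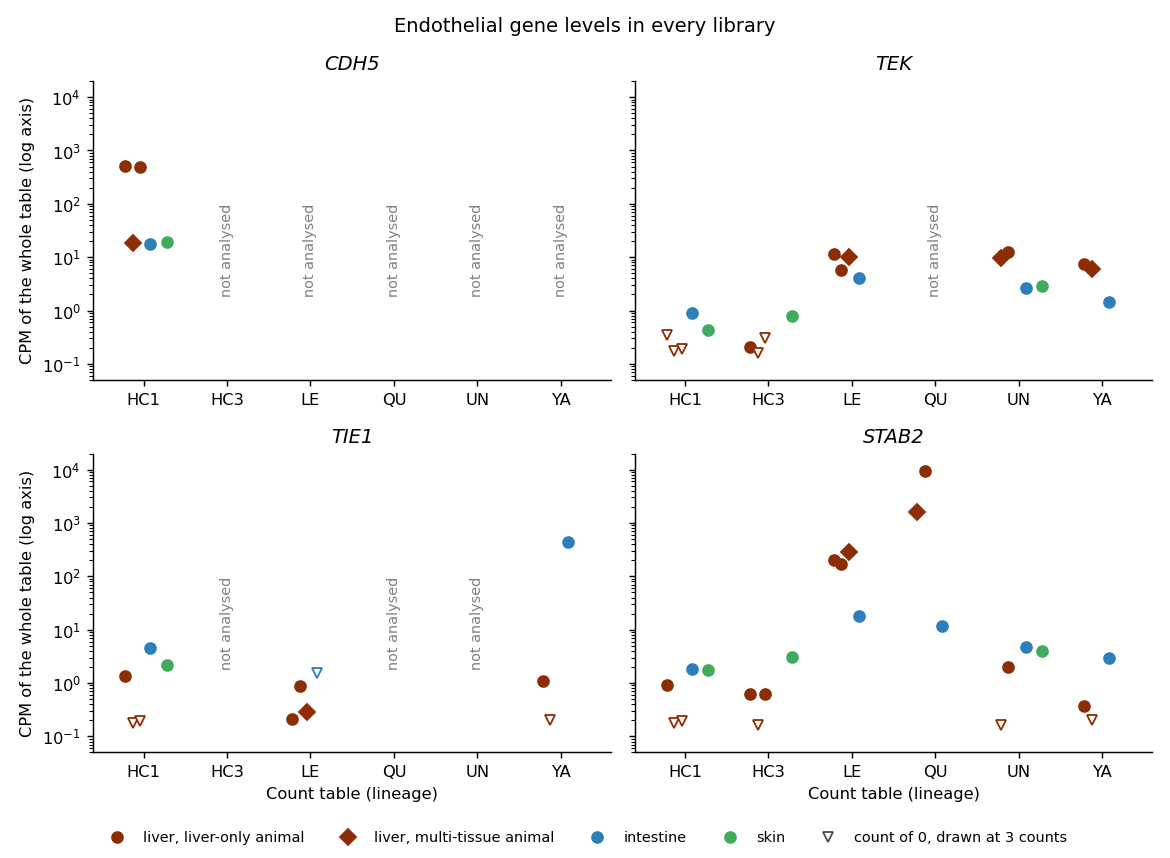
Level of each gene in every library, in CPM of the whole table on a log axis, by count table. Circles are livers of liver-only animals (brown), intestines (blue) and skins (green), diamonds are multi-tissue livers, and open triangles are counts of 0, drawn at the level of 3 counts. STAB2 stands highest in the QU and LE livers, TEK lies near 10 CPM in the LE, UN and YA livers, and TIE1 stands high in the YA intestine.

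CDH5 was abundant in 2 of the 3 HC1 livers and far lower in the third liver, the intestine and the skin. It had 4500, 308 and 7723 counts in HC1 livers 1, 2 and 3, or 519, 18.3 and 497 CPM, with 39 counts in intestine (17.6 CPM) and 90 in skin (19.4 CPM). Liver 2 is the multi-tissue liver, taken from the animal that gave the intestine and the skin, and it lay at the level of those tissues and not at that of the other livers. CDH5 was the 271st and 269th most abundant row in livers 1 and 3, and the 2998th in liver 2.

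Among the HC1 livers, the highest level of CDH5 was 28.3 times the lowest, and 6.22% of the 4547 genes with a mean liver level of at least 5 CPM varied as much, where the median gene varied 2.12-fold. In edgeR's quasi-likelihood test over all genes of the HC1 livers, the log2 fold change of the multi-tissue liver from the others was -4.98 ± 0.58 (SE, adjusted p = 0.0490). That test sets 1 library against 2, with 1 residual degree of freedom. Its spread comes from livers 1 and 3 and is drawn toward the trend over all genes, and liver 2 is assumed to vary like them. In that comparison 56 of 7233 genes, 0.774%, were called lower at an adjusted p under 0.05 and none higher, and the median of all genes was -0.39. This call ended with whole-table library sizes (adjusted p = 0.0729) and with a stricter filter on low counts (adjusted p = 0.0620). The liver that differs is also the one with odd low counts and many rows at 0, and its part in the result was not tested.

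Against the mean of 3 livers, which was 345 ± 283 CPM (SD), CDH5 was 19.6-fold lower in intestine and 17.7-fold lower in skin. Against the liver of the same animal the ratio was 1.04 in intestine (liver over intestine, exact binomial 95% interval 0.744 to 1.49) and 0.942 in skin (0.742 to 1.20), both of which hold 1, with intervals that cover counting error only. With TMM scaling, which corrects for composition, CDH5 stood at 20.7 CPM in liver 2, 13.1 in intestine and 14.4 in skin. In edgeR's test the log2 fold change from liver was -5.06 ± 2.65 (SE, adjusted p = 0.475) in intestine and -4.92 ± 2.62 (adjusted p = 0.520) in skin, where 4.58% and 4.2% of 8161 genes were called, 2.12% and 2% as lower. Without the multi-tissue liver the same test gave -5.66 ± 0.67 (adjusted p = 0.0132) and -5.60 ± 0.66 (adjusted p = 0.0132), on 2 livers, 1 library of each tissue and 1 residual degree of freedom. The liver left out there is the one at the level of intestine and skin, so this call follows from its removal and has no replicate of either tissue. CDH5 was also called in both tissues by DESeq2 on all 5 libraries. In edgeR a term for the multi-tissue liver gives that 1 library its own coefficient, so this fit sets it aside as its removal does. Without liver 1 the log2 fold change of CDH5 in intestine was -4.58.

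VE-cadherin junction genes, a list of 20, had 7 members tested between intestine and liver in the 5 tables with intestine, of which TJP1, the tight junction scaffold ZO-1, rose by 1.26 ± 0.35 on the log2 scale (edgeR adjusted p = 0.0379, and 0.0606 without the multi-tissue livers). Of all 2820 genes tested there 7.59% were called, 5.74% as higher and 1.84% as lower. In skin, 11 were tested over 3 tables and TJP1 rose by 2.56 ± 0.48 (edgeR adjusted p = 0.0112, and 0.0128 without the multi-tissue livers), from 105 ± 33.7 CPM in 8 livers to 595 ± 28.2 CPM in 3 skins on the shared genes, where 6.57% of 4780 genes were called, 4.98% as higher and 1.59% as lower. The median log2 fold change of the list was 1.24 in intestine and 1.44 in skin, beside 0.78 and 0.66 over all genes tested. Without the multi-tissue livers the list's medians fell to 0.38 and 0.72. The catenin genes tested in skin were not called by edgeR: JUP, plakoglobin, had 3.18 ± 1.31 (adjusted p = 0.190), CTNNA1, alpha-catenin, 1.44 (adjusted p = 0.525) and CTNNB1, beta-catenin, 0.66 ± 0.50 (adjusted p = 0.499). Epithelia use these genes too, and the keratinocyte genes, of which 7 of 7 tested were called higher in skin and 6 without the multi-tissue livers, moved with TJP1, and their part in its rise was not tested.

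**Figure D2:**
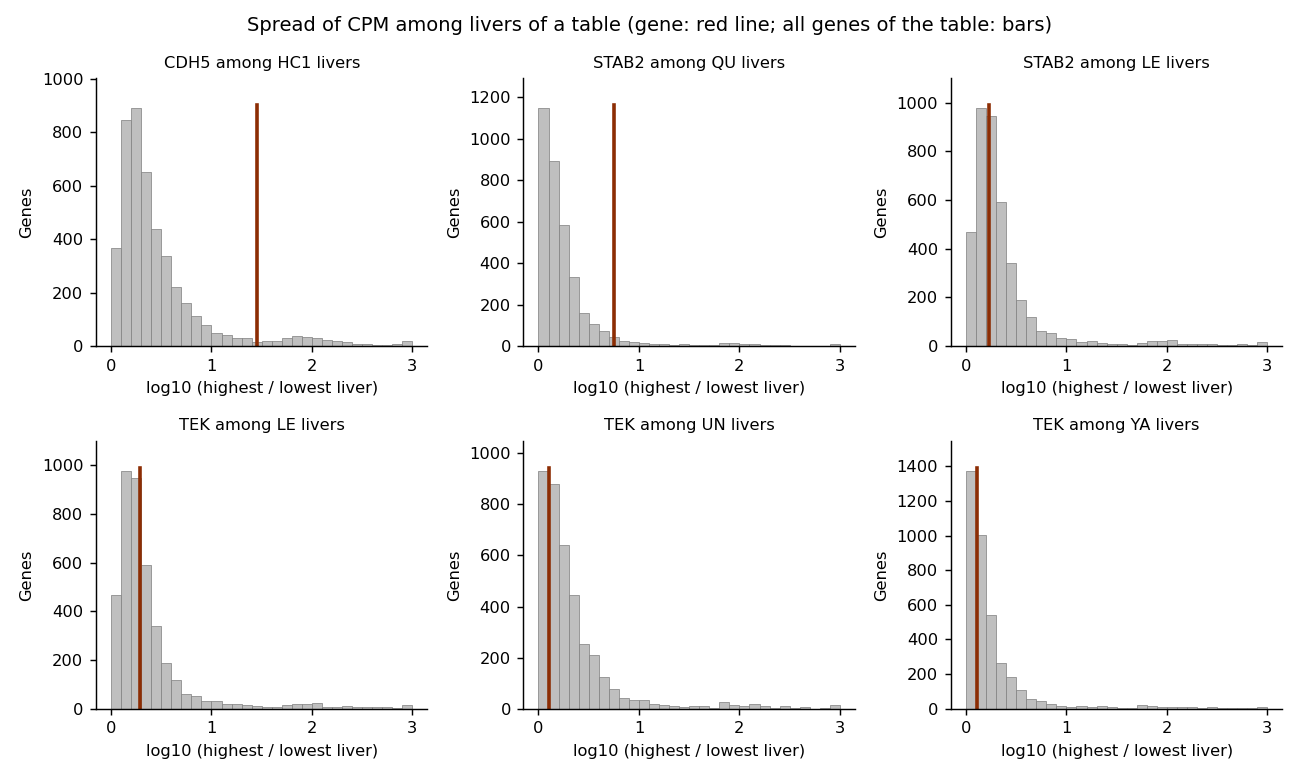
Spread of whole-table CPM among the livers of a table, as log10 of the highest over the lowest liver, for all genes with a mean of at least 5 CPM (bars, number of genes; the last bar holds all larger values) and for the gene named in each title (red line). CDH5 in HC1 (28.3-fold) and STAB2 in QU (5.69-fold) lie in the upper tail, while TEK and STAB2 in LE lie among the bulk of genes.

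TEK stood at a low, even level in liver and lower in intestine and skin in the 3 tables where it was counted in more than a few reads. LE livers had 110, 53 and 174 counts, or 11.4, 5.85 and 10.02 CPM, and the LE intestine 8 counts, 4.07 CPM. UN livers had 176 and 198 counts, or 9.67 and 12.4 CPM, the UN intestine 8 (2.67 CPM) and the UN skin 10 (2.90 CPM). YA livers had 82 and 89 counts, or 7.58 and 5.89 CPM, and the YA intestine 5 counts, 1.47 CPM. In each of these tables every liver was above the intestine and, in UN, above the skin, without overlap.

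A library below every liver is common, however: in these tables this held for 28.3% of genes in the LE intestine, 36.5% in the UN intestine, 34.8% in the YA intestine and 22.2% in the UN skin, over genes with a mean of at least 5 CPM. Compared with the liver of the same animal, TEK in liver was 2.46-fold the level in intestine in LE (exact binomial 95% interval 1.22 to 5.80), 3.62-fold in UN (1.80 to 8.51) and 4.0-fold in YA (1.65 to 12.6). Liver over skin in UN was 3.33-fold (1.77 to 7.07). Against the mean of the livers, TEK was 2.24-fold the level in intestine in LE, which is under 3-fold, 4.12-fold in UN and 4.57-fold in YA. A mean liver level at least 3-fold that of the intestine was found for 12.6% of genes in LE, 15.8% in UN and 12.9% in YA.

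The multi-tissue livers did not stand out for TEK. The highest liver was 1.96 times the lowest in LE, 1.28 times in UN and 1.29 times in YA, and 42.0%, 74.1% and 60.9% of genes varied as much. In the HC1 table TEK had 0 counts in each of 3 livers and 2 in intestine and in skin, and in HC3 it had 2, 0 and 0 counts in liver and 2 in skin, all at or below the level of 3 counts taken here as the floor of detection, so no ratio is given.

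Joined over the 5 tables, the log2 fold change of TEK was -0.21 ± 2.21 (SE, edgeR adjusted p = 0.963) between intestine and liver and 0.83 ± 1.28 (adjusted p = 0.756) between skin and liver. Of 2940 genes 9.35% were called in intestine, 8.37% as higher and 0.986% as lower, and 5.41% in skin, 4.46% as higher and 0.952% as lower, with medians of 1.16 and 0.88 over all genes. Without the multi-tissue livers TEK had -1.48 ± 1.15 (edgeR adjusted p = 0.423) in intestine and -0.54 ± 1.68 (adjusted p = 0.869) in skin, so the sign in skin turned. Table by table, a fit chosen after seeing the data, edgeR gave -1.61 ± 0.85 in LE, -2.50 ± 1.49 in UN and -2.41 ± 1.29 in YA for intestine. In the UN skin it gave -3.05 ± 1.53. Each of these fits holds a single library of the intestine or skin, so only the sizes are given. The SE of the joined fit spans both directions, and leaving out the LE, UN or YA intestine or YA liver 1 turned its sign in intestine, to between 0.02 and 0.41.

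TIE1 was near the floor in every liver and abundant in a single library, the YA intestine. HC1 livers had 12, 0 and 0 counts, the HC1 intestine 10 and the HC1 skin 10, which is 1.38, 0 and 0, 4.51 and 2.16 CPM. LE livers had 2, 8 and 5 counts and the LE intestine 0. The YA livers had 12 and 0 counts, and the YA intestine 1466, or 432 CPM, the 258th most abundant row of that library. The YA intestine stood 390-fold above liver 1 and at least 2177-fold above the floor of 3 counts in liver 2, the multi-tissue liver of the same animal.

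This difference rests on that 1 library. Joined over 3 tables, TIE1 had a log2 fold change of 5.34 ± 2.91 between intestine and liver (edgeR adjusted p = 0.304), where 4.34% of 4567 genes were called, 3.44% as higher and 0.898% as lower, and without the YA intestine it had 1.63. DESeq2 on the same libraries gave 5.19 ± 1.95 (adjusted p = 0.0361), and edgeR without the multi-tissue livers 2.61 ± 2.20 (adjusted p = 0.510). In the YA table alone it was 9.38 ± 2.52 (edgeR adjusted p = 0.302), where no gene of 6410 was called and 959 had an unadjusted p under 0.05. Between skin and liver TIE1 had 2.44 ± 2.86 (edgeR adjusted p = 0.853) and 1 gene of 4567, 0.0219%, was called, and without the multi-tissue livers it had 1.16 ± 2.51 (adjusted p = 0.877).

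TEK in the same YA intestine went the other way, with 5 counts against 82 and 89 in the livers. TIE1 was thus the receptor with the higher count in the YA intestine and TEK in the YA livers, as counts that are not corrected for length. The summed level of the 13 pan-endothelial genes with a row in YA was 682 CPM in intestine, of which 248 were left without CDH5, TEK, TIE1 and STAB2, against 265 and 195 CPM in the livers counted the same way.

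**Figure D3:**
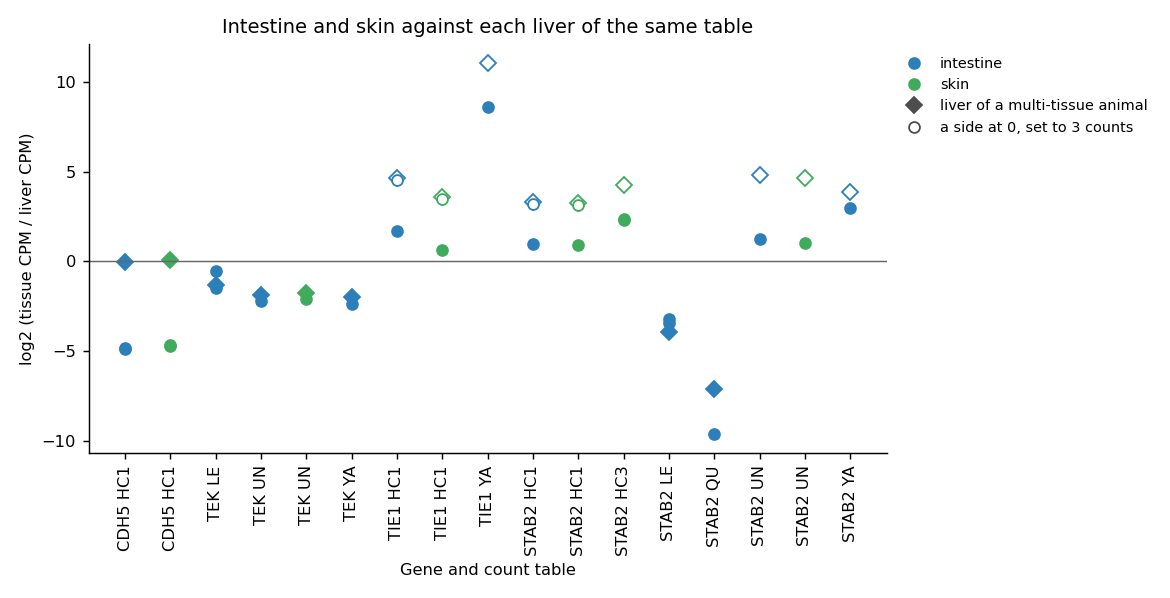
Intestine (blue) and skin (green) against each liver of the same table, as log2 of the ratio of whole-table CPM. Diamonds are multi-tissue livers, and open symbols have a side at 0 set to 3 counts; genes with 3 counts or fewer in the intestine or skin are left out. TEK in LE, UN and YA and STAB2 in LE and QU lie below 0, TIE1 in YA far above it, and the CDH5 points split between 1 liver at 0 and 2 livers near -5.

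Of 19 genes listed for the angiopoietin pathway, TEK and TIE1 among them, 18 had a row in at least 1 table. AKT1 and PTPN11, kinase and phosphatase of its signalling, could be tested in intestine, and with them FOXO1, ITGB1 and TEK itself in skin, with none called by edgeR, with or without the multi-tissue livers, and none at an unadjusted p under 0.05. The list's median was 0.42 in intestine and 0.38 in skin, and -0.08 and -0.15 without the multi-tissue livers. FOXO1, a transcription factor held back by TEK signalling, reached 5616 CPM in LE liver 1. This level is particular to the LE table. The whole list summed to 3773 to 5708 CPM in LE livers and 2548 CPM in the LE intestine. In the livers of the other tables it summed to no more than 484 CPM. ANGPT2, the context-dependent ligand of TEK, was above every liver in all 3 tables with an intestine. It had 6, 7 and 14 counts in HC1 livers and 22 in the intestine, 7 and 4 in UN livers and 14 in the intestine, and 12 and 21 in YA livers and 36 in the intestine. As CPM this is 9.93 against 0.416 to 0.902 in HC1, 4.67 against 0.25 and 0.384 in UN, and 10.6 against 1.11 and 1.39 in YA. A library above every liver is the more common state, at 44% of genes in the HC1 intestine, 41% in UN and 47.2% in YA. ANGPT1, the activating ligand, had 2 to 9 counts in every library of the UN and YA tables. PTPRB, the phosphatase that removes phosphate from TEK, had 59 and 23 counts in UN livers and 6 in the intestine, and 64 and 84 in YA livers and 6 in the intestine. In LE it had 2, 0 and 0 counts in livers and 6 in the intestine, 3.05 CPM, above every liver. In YA its 5.92 and 5.56 CPM in liver lay above 1.77 CPM in intestine, while in UN the intestine, at 2.0 CPM, fell between the livers.

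STAB2 had the widest range of levels between tables. In the QU livers it had 31551 and 148809 counts, or 1636 and 9311 CPM, and was the 83rd and 11th most abundant row, while the QU intestine had 20 counts, 11.7 CPM. In the LE livers it had 1905, 1532 and 4947 counts, or 198, 169 and 285 CPM, and in the LE intestine 36 counts, 18.3 CPM. In both tables every liver lay above the intestine, which held for 14.7% of genes in QU and 28.3% in LE. In the other tables STAB2 had no more than 32 counts in any library.

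In LE the liver of the animal that also gave the intestine had 15.6 times the intestine's level (exact binomial 95% interval 11.2 to 22.3) and the other livers at least 9.24 times. In QU the liver of the same animal had 139 times the level (90.2 to 228) and the other liver 793 times. A mean liver level at least 3-fold that of the intestine was reached by 12.6% of genes in LE and 7.02% in QU. In the LE table alone, a fit chosen after seeing the data, the log2 fold change of STAB2 was -3.99 ± 0.56 (SE, edgeR adjusted p = 0.0424) on 1 intestine and 3 livers with 2 residual degrees of freedom, so that the intestine is assumed to vary like the livers. There 1.58% of 6767 genes were called lower and 2.63% higher. In the QU table alone the log2 fold change was -10.16 ± 2.08 (edgeR adjusted p = 0.210), where none of 6145 genes was called and 898 had an unadjusted p under 0.05.

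In the 4 other tables STAB2 was counted a handful of times. Livers had 8, 0 and 0 counts in HC1, 6, 0 and 6 in HC3, 0 and 32 in UN and 4 and 0 in YA. The intestines had 4 in HC1, 14 in UN and 10 in YA, and the skins 8 in HC1, 8 in HC3 and 14 in UN. As CPM, each intestine and skin lay above every liver of its table, at 1.73 to 4.67 CPM against 0 to 2.0 CPM. That is common: it held for 44% of genes in the HC1 intestine, 41% in UN and 47.2% in YA. In skin it held for 50.4% in HC1, 63.6% in HC3 and 60.6% in UN. These shares are over genes with a mean of at least 5 CPM, which STAB2 did not reach in these tables. With TMM scaling within the table the UN skin, at 2.47 CPM, lay below UN liver 2 at 2.98 CPM, while the others kept their place. All 4 multi-tissue livers of these tables were at 0, and the shallower depth of intestine and skin gives each count there a larger CPM. Their part in these ratios was not tested.

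Joined over 6 tables, STAB2 therefore showed no common direction. Its log2 fold change was 0.89 ± 1.61 (SE, edgeR adjusted p = 0.765) between intestine and liver and 1.23 ± 1.64 (adjusted p = 0.758) between skin and liver, where 8.44% of 2252 genes were called in intestine, 6.22% as higher and 2.22% as lower, and 4.09% in skin, 3.06% as higher and 1.02% as lower. Without the multi-tissue livers the fold changes were -0.53 ± 1.68 (edgeR adjusted p = 0.869) and 0.23 ± 1.51 (adjusted p = 0.939). A test of whether the difference between intestine and liver itself varied between lineages gave an adjusted p of 1 with edgeR (unadjusted p = 0.190, 0 of 2821 genes called and 94 at an unadjusted p under 0.05). DESeq2 called 306 of the same genes, and edgeR without the multi-tissue livers called 128 and gave STAB2 an adjusted p of 0.0718.

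Within QU the highest liver was 5.69 times the lowest, a spread reached by 5.86% of 3534 genes, where the median gene varied 1.47-fold. The lower QU liver is the multi-tissue one. In LE the highest liver, the multi-tissue one, was 1.68 times the lowest, and 57.1% of genes varied as much. Over all tables the multi-tissue livers had STAB2 at -3.43 ± 1.24 on the log2 scale (SE, edgeR adjusted p = 0.127) from the other livers, with 67 of 2251 genes, 2.98%, called lower and none higher, and a median of -1.48 over all genes. DESeq2 gave -3.70 ± 1.21 (adjusted p = 0.0141). TEK had -1.09 ± 0.81 (edgeR adjusted p = 0.386) and TIE1 -3.57 ± 1.86 (adjusted p = 0.576) in the same comparison on their own tables, where 25 of 2928 genes, 0.854%, and 0 of 4412 genes were called, the latter with 399 at an unadjusted p under 0.05.

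Liver levels between tables differed most for STAB2, whose mean liver level in QU, 5474 ± 5427 CPM (SD, n = 2), was 15824-fold above that in HC1 or YA when levels under 3 counts of the shallowest liver were raised to it. Without QU liver 2 the ratio was 4730 and without QU liver 1 26918. The background was genes shared by the tables with a mean liver level of at least 5 CPM in any of them. A spread as wide was found for 0.549% of 2185 such genes of the 6 tables, but the median gene spread 127-fold and 56.2% of genes at least 100-fold. TEK spread 31.8-fold on the same scale over 5 tables, which 73.6% of 2766 genes reached. The HC1 livers, all at 0 counts of TEK, were raised to the floor there. For TEK 31.8-fold is thus a lower bound, and its place among the genes is no measure of evenness. TIE1 spread 1.21-fold over 3 tables, and 2.41-fold without YA liver 2. Its mean liver levels, 0.460 to 0.555 CPM, lay just above the floor of 0.346 CPM used there and far under the 5 CPM of the background. The floor thus limited the spread TIE1 could show, and its place among the other genes is no measure of evenness. In order of mean liver level, STAB2 ran from QU to LE (217 ± 60.2 CPM, n = 3), UN (0.999), HC3 (0.414), HC1 (0.307) and YA (0.185). The last 4 overlapped in their single livers, while all QU livers were above all LE livers and these above all others. How many genes have livers set apart by table in this way was not counted, so whether this is particular to STAB2 cannot be told. For TEK the order was UN (11.0 ± 1.91 CPM, n = 2), LE (9.10 ± 2.91, n = 3) and YA (6.74 ± 1.19, n = 2), whose neighbours overlapped, followed by HC3 and HC1 at 0 to 0.207 CPM.

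A test of differences between lineages in liver gave STAB2 an adjusted p of 0.00280 and TEK 0.00555 with edgeR, but 65.4% of 2251 and 62.7% of 2928 genes were called in those tests. TIE1 had an adjusted p of 0.998, where 44.9% of 4412 genes were called. With livers of multi-tissue animals left out, QU, UN and YA had no replicate liver, so spread within a lineage came from H. leechii only. No p-value is given for that fit. Whether the tables count reads on like parts of a gene was not tested, so a difference of lineage and a difference in the sequence behind a symbol cannot be told apart.

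**Figure D4:**
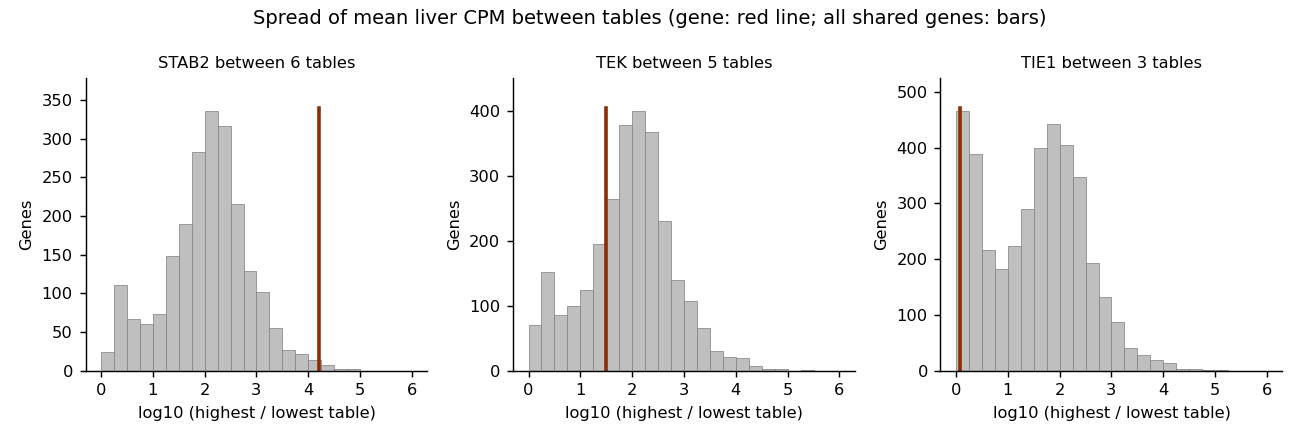
Spread of the mean liver level between tables, as log10 of the highest over the lowest table, for the gene itself (red line) and for other genes (bars, number of genes). The bars hold genes shared by the tables that hold the gene, with a mean liver level of at least 5 CPM in any of them. STAB2 (15824-fold) lies in the upper tail and TEK (31.8-fold) below the median gene, as a lower bound with its HC1 level raised to the floor. TIE1 (1.21-fold) lies at the lower end, where its levels near the floor hold it.

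Other genes of sinusoidal endothelium also differed from table to table. LRP1, an endocytic receptor of many liver cells, was high in livers of both tables where STAB2 was, and also in UN. Its liver levels were 143 to 599 CPM in LE, 398 and 783 in QU and 844 and 227 in UN. Unlike STAB2, LRP1 was also high outside liver in these tables. It stood at 400, 317 and 218 CPM in the LE, QU and UN intestines and at 322 CPM in the UN skin. It was at 0 to 10.2 CPM in the livers of HC1, HC3 and YA. OIT3, a marker of liver sinusoidal endothelium in mammals, was abundant in the livers of HC1, HC3, QU, UN and YA, at 96.4 to 827 CPM, and near 0 in those of LE, at 0 to 0.662 CPM, where STAB2 was at 169 to 285 CPM. STAB1, the sister receptor of STAB2, was at 51.9 and 81.6 CPM in UN livers, with 4.34 CPM in the intestine and 11.3 CPM in the skin, and at 1.04 CPM or less in all livers of HC1, LE, QU and YA. MRC1, the mannose receptor, was at 26.2 to 175 CPM in the livers of HC1 and HC3 and at 2.08 CPM or less in those of LE, UN and YA. F8, coagulation factor VIII, which in mammals comes from liver endothelium, was measured in UN, at 52.7 and 37.3 CPM in liver, 24.4 in intestine and 26.4 in skin. LYVE1, the hyaluronan receptor of lymph vessels and sinusoids, was at 22.2 and 24.7 CPM in QU livers and 49.9 CPM in the QU intestine, where STAB2 was at 11.7 CPM. LYVE1 lay above every liver in 3 of 3 intestines and 2 of 2 skins. Over all rows of the sinusoidal and lymphatic list, 20 of 53 intestine values (37.7%) lay below every liver and 28 (52.8%) above. For genes at a mean of at least 5 CPM, a level not asked of this list, the shares were 14.7% to 36.5% and 41% to 69.7%.

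Of the 18 sinusoidal and lymphatic genes listed, 15 had a row in some table. Between skin and liver 7 could be tested and OIT3 fell, by 5.25 ± 1.03 on the log2 scale (SE, edgeR adjusted p = 0.0135, and 0.0102 without the multi-tissue livers), from 569 ± 538 CPM in 8 livers to 27.8 ± 42.3 CPM in 3 skins on the shared genes. Between intestine and liver 5 were tested and none was called, nor at an unadjusted p under 0.05, with OIT3 at -2.70 ± 2.09 (edgeR adjusted p = 0.438). The list's median was 0.62 in intestine, where it turned to -0.41 without the multi-tissue livers, and -1.15 in skin. Of the 20 scavenger and hyaluronan receptors, 5 were tested in intestine and 8 in skin and none was called by edgeR, with 1 and 2 at an unadjusted p under 0.05. Their medians were 0.95 and 0.26, and without the multi-tissue livers they turned to -0.41 and -0.11 and 1 was called higher in intestine. STAB2 is a tested member of both lists. CD44, the hyaluronan receptor of many cell types, was at 4.04 ± 1.56 in skin (edgeR adjusted p = 0.161) and SCARB2, a lysosomal membrane receptor, at 2.53 ± 0.80 in intestine (adjusted p = 0.0645).

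The wider set of endothelial genes was thin in these tables. Of 43 pan-endothelial genes, 31 had a row in at least 1 table and 2, CALCRL and FLI1, in all 6. ERG, a transcription factor that keeps endothelial identity, was at 4.57 to 33.5 CPM in 13 livers, with a median of 12.2, and below every liver in 3 of 4 intestines and 2 of 3 skins. EGFL7, a secreted protein of endothelium, was at 4.49 to 29.9 CPM in 13 livers, with a median of 12.5, and below every liver in 3 of 4 intestines and all 3 skins. Other members went the other way. CALCRL and MMRN1 each lay above every liver in 4 of 5 intestines, and CD34 and TAL1 each in 3 of 3. Of these, CALCRL in the LE intestine (1.02 CPM) and MMRN1 in the QU intestine (1.17 CPM) were under the floor of 3 counts. LYL1 lay below every liver in 3 of 3 intestines. Across all rows of the list, 26 of 79 intestine values (32.9%) lay below every liver of their table and 36 (45.6%) above. Over genes with a mean of at least 5 CPM the shares were 14.7% to 36.5% and 41% to 69.7%. The list's rows were not filtered by level, so the shares are not on a like basis.

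In the test between skin and liver, 7 pan-endothelial genes were measured, TEK among them. TAL1, a transcription factor of blood and endothelial precursors, rose by 4.01 ± 0.95 on the log2 scale (edgeR adjusted p = 0.0286, and 0.0578 without the multi-tissue livers), from 0.711 ± 1.14 CPM in 8 livers to 6.83 ± 5.73 CPM in 3 skins. EGFL7 had -2.35 ± 0.65 (edgeR adjusted p = 0.0544) and fell without the multi-tissue livers (adjusted p = 0.0370), and ERG had -2.03 ± 0.66 (adjusted p = 0.0969). The median was -0.50, beside 0.66 over all genes. In intestine CALCRL, FLI1 and MMRN1 were tested and none was called by edgeR or had an unadjusted p under 0.05, with a median of -0.07 beside 0.78 over all genes. CALCRL is the receptor of adrenomedullin, FLI1 a transcription factor of endothelium and blood cells, and MMRN1 a protein of platelets and endothelium. Neither of the VEGF pathway's 2 genes tested in intestine, EPAS1 and HIF1A, nor its 3 in skin was called by edgeR, with 1 in each at an unadjusted p under 0.05 and medians of 2.81 and 1.97. KDR, the main VEGF receptor, was measured in HC1, at 0 to 1.25 CPM in every library.

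**Figure D5:**
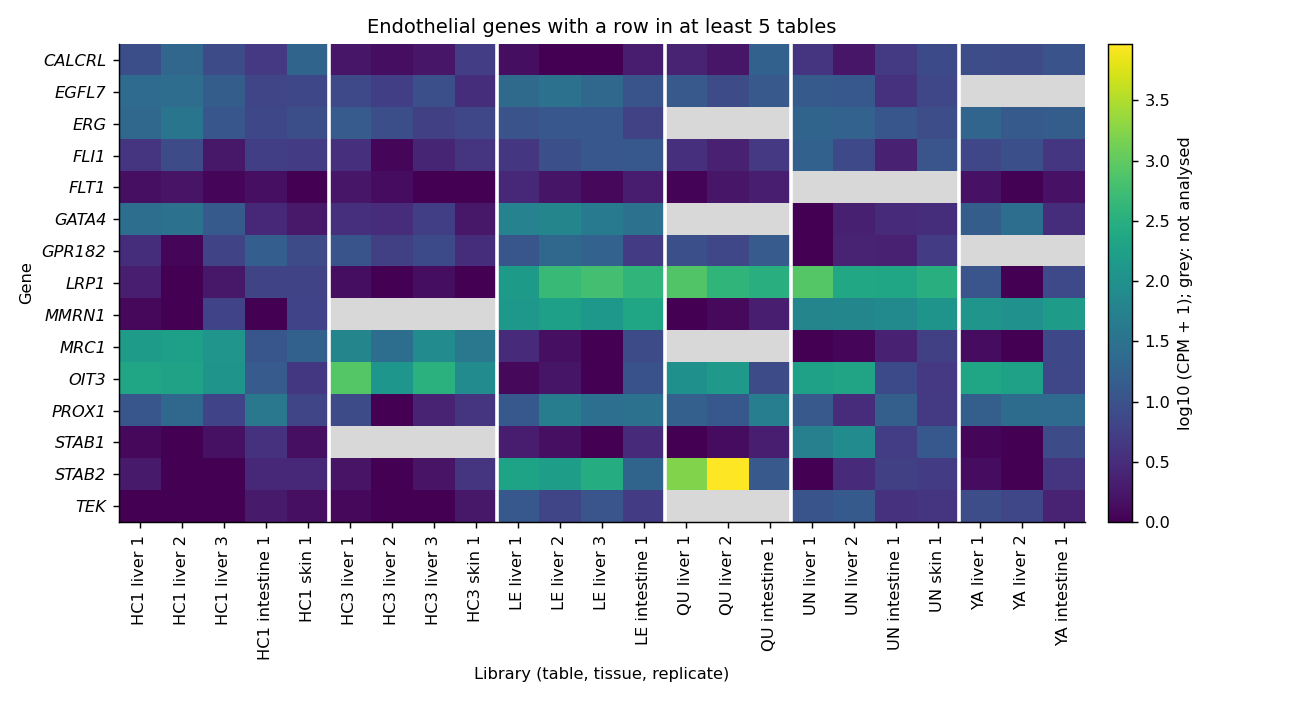
Level of the 15 pan-endothelial and sinusoidal genes with a row in 5 or 6 tables, as log10(CPM + 1) of the whole table in each library; white lines separate tables and grey cells were not analysed. STAB2 is bright in the LE and QU livers, OIT3 in the livers of every table but LE, and MRC1 in the HC1 and HC3 livers.

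Single endothelial genes showed other patterns of libraries. PLVAP, a protein of the diaphragms of fenestrated endothelium, was at 0 in the multi-tissue livers of HC1 and HC3 and at 17.1 to 22.0 CPM in the other livers of both tables. VWF, which binds platelets to injured vessels, was at 0 in LE liver 3 and in both UN livers, and at 19.9 to 83.0 CPM in the 6 other livers of LE, QU and YA. NOS3, the endothelial nitric oxide synthase, stood at 23.8 CPM in skin of HC1 and 29.4 CPM in that of HC3, and at 0 to 2.50 CPM in the livers of both lineages. CD34, a surface protein of capillary endothelium and of blood progenitors, had 13.8 and 27.0 CPM in the same skins and 1.87 to 5.50 CPM in those livers, so that it stood higher in skin where CDH5, measured in HC1, did not.

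Markers of other cells moved with the tissues in which the 4 genes were compared. The pericyte, stellate and smooth muscle genes, 7 to 11 of 14 in a table, summed to 88.1 to 1825 CPM in liver and 2310 to 7627 CPM in intestine, and CNN1, calponin, and MYH11, smooth muscle myosin, rose in intestine by 4.32 ± 0.56 and 5.63 ± 0.54 on the log2 scale (edgeR adjusted p = 0.000248 and 2.71e-05), and had 3.74 and 5.07 without the multi-tissue livers. In skin CNN1 rose and RELN, an extracellular glycoprotein of stellate cells, fell, of 7 tested. The leukocyte genes, 7 to 9 of 10 in a table, summed to 283 to 2014 CPM in liver and 117 to 501 CPM in intestine, with 3 of 6 tested lower in intestine (CORO1A, CXCR2 and PLEK) and 3 lower and 1 higher (CD74) of 8 tested in skin. Without the multi-tissue livers CD74 had an edgeR adjusted p of 0.0740 in skin. Of the 7 hepatocyte genes tested 4 fell in intestine and 5 in skin, 4 of 6 intestinal epithelium genes rose in intestine and 2 of 6 in skin, and 2 of 4 keratinocyte genes rose in intestine. Of 4 erythroid and thrombocyte genes, SLC4A1, the red cell anion exchanger, rose in intestine and none was called in skin. Without the multi-tissue livers 5 hepatocyte genes and 4 leukocyte genes were lower in intestine, 1 erythroid gene was higher and 1 lower there, and the other counts of these lists were as given. The part of these cell types in the ratios of CDH5, TEK, TIE1 and STAB2 was not tested.

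The genes most like each of the 4 across libraries were found by the mean absolute difference in log2(CPM + 1) after centring each table, a description without a test over libraries that share depth and tissue. For CDH5 they were PRKAR1B, TDRD1 and CCDC57 among 5242 genes of HC1, with differences of 0.16, 0.35 and 0.39 where the median gene differed by 2.47. PRKAR1B, a regulatory subunit of protein kinase A, had 178, 0 and 394 counts in the HC1 livers, 0 in intestine and 2 in skin. Like CDH5 it was higher in livers 1 and 3 than in liver 2, where it had 0 counts and CDH5 had 308. The genes named here were picked for their likeness over these same libraries. CCDC57 had 451, 0 and 214 counts in the livers and 0 in both other tissues. For TIE1 the nearest were GSPT2, RUVBL1 and NAT10, at 0.41, 0.43 and 0.45 over 12 libraries (median gene 1.45). GSPT2, a translation termination factor, had 22 and 0 counts in the YA livers and 1641 in the YA intestine, RUVBL1, a DNA helicase, 23 and 0 against 1222, and NAT10, an RNA acetyltransferase, 4 and 0 against 2206. The steep rise in the YA intestine, with 0 counts in the liver of the same animal, was shared by these 3 genes.

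For TEK the nearest genes were AAAS, VIMP and NUPL2, at 0.29, 0.34 and 0.34 over 20 libraries, where the median gene differed by 0.89. AAAS, a nuclear pore protein, had 10.4 and 14.6 CPM in UN livers, 4.01 in the intestine and 9.58 in the skin, a smaller drop in skin than that of TEK. For STAB2 they were APEX1, PROC and SLC40A1, at 0.69, 0.84 and 0.91 over 23 libraries (median gene 1.35). APEX1, a DNA repair enzyme, was at 346 and 330 CPM in QU livers and 29.4 CPM in the QU intestine, and PROC, the anticoagulant protein C made by hepatocytes, at 187 and 198 CPM against 3.52 CPM. In LE, PROC had 4, 0 and 0 counts in livers, where STAB2 had 1905, 1532 and 4947, so the likeness to STAB2 did not hold in every table.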

How the data were processed

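The authors deposited raw read counts, 1 table for each of the 6 lineages with genes in rows and libraries in columns, per the file headers. Per the submitters' processing notes BWA and SAMtools were used. Versions, genome build and counting rule are not given in the sources used here. Counts on the row that names no gene, up to 0.169% of a library, were dropped. Sample titles gave each library's lineage, tissue and animal, and 0 columns were left unmapped. No reference sequence or transcript length was used, so sequences are not shown.

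Whole-table CPM are counts per 1000000 counts of a library. The floor was 3 counts per library, and intervals were exact at 95%. Counts were tested in R 4.3.3 with edgeR 4.0.16 (filterByExpr with a minimum count of 10, TMM, robust glmQLFit and glmQLFTest, lineage plus tissue) on the genes found in all tables that hold a gene, and genes were called at a Benjamini-Hochberg adjusted p under 0.05. SEs of edgeR fits are the log2 fold change divided by the square root of F, and those of DESeq2 fits are the ones it reports. Lists were fitted on the genes of the 5 tables with intestine or the 3 with skin, and CPM on the shared genes are TMM-scaled. The alternatives were other size factors, DESeq2 1.42.0, other filters, the animal as a block, a term for or absence of the multi-tissue livers, and each library left out. Chosen after seeing the data were single-table fits, the test between lineages of tissue differences, lists without the multi-tissue livers, and the spread between tables with each liver left out. The numbers pairing tissues come from the specimen numbers of the labels.

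The 4 genes and the 12 lists (pan-endothelial, sinusoidal and lymphatic, angiopoietin pathway, VE-cadherin junction, VEGF pathway, scavenger and hyaluronan receptors, pericyte and smooth muscle, leukocyte, erythroid, hepatocyte, intestinal epithelium, keratinocyte) were chosen with earlier results of these data known. Named besides them were the 3 genes nearest to each in table-centred log2(CPM + 1), with a pseudocount of 1 CPM and a mean of at least 5 CPM, and per list up to 4 called genes of largest fold change, filled up by CPM. Some named by this rule are counted but not described, and other listed genes are named after their values were seen.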

Additional observations from a re-analysis of the deposited data

Results flagged for a closer look

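In 4 cases the CPM of a tissue lay below every liver in some tables and above every liver in others. STAB2 in intestine was below every liver in LE and QU and above every liver in HC1, UN and YA, and the test of the difference between lineages gave an adjusted p of 1 with edgeR. TEK in intestine was below every liver in LE, UN and YA and above every liver in HC1, where the counts were 0 in each liver and 2 in intestine. Its test gave an adjusted p of 0.581 with edgeR (unadjusted p = 0.0144, 0 of 3822 genes called), 0.248 without the multi-tissue livers, and 0.0336 with DESeq2, which called 356 genes. TEK in skin was below every liver in UN and above every liver in HC1 and HC3, on 2 counts in each of those skins, with an edgeR adjusted p of 1. TIE1 in intestine was below every liver in LE and above every liver in HC1 and YA, with an edgeR adjusted p of 1. In LE it had 0 counts in intestine against 2 to 8 in the deeper livers. The floor of 3 counts is 1.52 CPM in that intestine, while the LE livers were at 0.208 to 0.883 CPM. A count of 0 there cannot show a level below those livers. No library stood far from the rest in the 3 sets of 4 to 10 values tested for it. Smaller and larger sets were not tested, among them CDH5 in liver, TIE1 in intestine and STAB2 in liver.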

How the results depend on the processing

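Over the alternatives, 226 values with a library left out and 149 others counted as unchanged, while 6 and 5 reversed sign. A call was gained in 3 and 9 and lost in 2 of the others, and 14 ratios moved beyond the spread of livers. Unchanged means the same sign and call for fold changes, and the same call for tests without a direction. For ratios, which have no call, it means a shift within the spread of livers. A fit without an adjusted p was taken to keep its call. CDH5 was called under DESeq2 in intestine (-4.77 on the log2 scale, adjusted p = 0.0128) and skin (-4.88, adjusted p = 0.00916), with a term for the multi-tissue livers (-5.63 and -5.48), and without them (-5.66 and -5.60). Both the term and the removal set the multi-tissue liver of HC1 aside, so they are not separate support. The ratio of CDH5 to the liver of the same animal was 0.961 in intestine and 1.06 in skin. Its lower level in the multi-tissue liver was no longer called with the stricter filter (-5.00) or whole-table library sizes (-4.79). STAB2 in intestine reversed in the LE (-3.99) and QU (-10.16) tables alone and without the multi-tissue livers (-0.53), and its lower level in those livers was called under DESeq2 (-3.70, adjusted p = 0.0141). TEK in skin reversed in the UN table alone (-3.05) and without the multi-tissue livers (-0.54), and its difference between lineages in intestine was called under DESeq2 (adjusted p = 0.0336), as was TIE1 in intestine (5.19, adjusted p = 0.0361). With TMM scaling within a table, tissue over liver moved beyond the spread of livers to 0.0629 for STAB2 in LE (0.0642 with the same animal's liver), 2.96 in HC3 skin (5.05 with the other livers) and 1.66 in UN skin. It moved to 0.326, 0.176 and 0.186 for TEK in the LE, UN and YA intestines and 0.120 in UN skin, and for TIE1 to 5.65 in the HC1 intestine and 2.71 in HC1 skin, and to 390 in YA with the other liver.

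With each library left out, log2 fold changes in intestine ranged from -5.66 to -4.58 for CDH5, -0.073 to 1.85 for STAB2, -1.53 to 0.41 for TEK and 1.63 to 7.67 for TIE1, and in skin from -5.60 to -4.52, 0.96 to 2.14, -0.41 to 1.91 and 1.44 to 6.75. STAB2 reversed without the YA intestine, and TEK without the LE (0.18), UN (0.41) or YA (0.40) intestine or YA liver 1 (0.02), and in skin without the HC3 skin. For multi-tissue against other livers the ranges were -5.13 to -2.78 for STAB2, -1.37 to -0.64 for TEK and -6.60 to -2.54 for TIE1. With the animal as a replicate block, STAB2, TEK and TIE1 were not called: STAB2 had 4.11 in intestine and 4.83 in skin, TEK -0.08 and 0.47, and TIE1 8.03 and 6.98, and with only the animals that gave both tissues STAB2 had 4.31 and 7.76, TEK -0.43 and 2.57 and TIE1 8.29 in intestine. The block could not be fitted for CDH5, whose table holds 1 animal with more than 1 tissue. The block cut the genes called in intestine from 190 to 99 in the STAB2 fit, 275 to 2 in that of TEK and 198 to 0 in that of TIE1. Over the other alternatives, genes called ranged from 171 to 837 for CDH5 in intestine and 137 to 845 in skin, and from 0 to 839, 959 and 1104 in intestine for STAB2, TEK and TIE1. Adjusted p of the tests between lineages ranged from 0.00291 to 0.00855 for STAB2, 0.00622 to 0.0151 for TEK and 0.302 to 0.994 for TIE1 with a library left out, and those of tissue differences between lineages stayed above 0.05 in edgeR. TIE1 did not pass the stricter filter, and DESeq2 gave no adjusted p for the skin differences between lineages of STAB2 and TEK. Depth limits rows of few counts, and 1 intestine or skin per table leaves no spread within a table.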
